A study of Caenorhabditis elegans with 2 samples.

Results

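The 9 genes described here encode the meiotic chromosome axis and the synaptonemal complex of Caenorhabditis elegans: him-3, htp-1, htp-2, htp-3, syp-1, syp-2, syp-3, syp-4 and rec-8. They were taken by gene name from the Ensembl annotation of build WBcel235 (ce11), in which each name matched 1 of 19973 nuclear protein-coding genes. The assay was ChIP-seq, which sequences the DNA precipitated with a protein, here LIN-13, a nuclear protein with zinc fingers that belongs to the synMuv B group. Whole L4 larvae of both sexes were used, and the labels give the antibody as lin-13 and describe the target as an eGFP fusion. The strain, OP49, carried the unc119(ed3) allele and wgIs49(lin-13::TY1 EGFP FLAG;unc119), an inserted transgene, and no treatment is named. Which cells made the fusion protein is not stated. There was 1 group with 2 biological replicates, so the peaks were compared between replicates and with the rest of the genes, and no condition was tested.

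In meiosis, sister chromatids are held by cohesin and organised along a protein axis, and the synaptonemal complex then joins the axes of paired homologues along their length. In the worm, REC-8 is a kleisin subunit of meiotic cohesin, HTP-3, HIM-3, HTP-1 and HTP-2 are axis proteins with a HORMA domain, and the SYP proteins build the central region between the axes. These genes act in the germ line. synMuv B proteins such as LIN-13 are known for keeping germline genes silent in somatic cells, which is the background against which peaks near these genes are of interest. Whole larvae hold somatic and germline nuclei together, so binding in fewer cells and weaker binding per cell cannot be told apart.

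A gene was counted as reached by a peak when the summit lay inside it or within 2 kb of either end. Of the 9 genes, only syp-4 had a reproducible peak in reach. Among all protein-coding genes 3148 had one, which is 15.8%. The peak of syp-4 was also the only one no more than 500 bp from the 5' end of one of these genes, against 6.99% of all protein-coding genes. A count of 1 of 9 lies near both shares, and nothing is read from it. The reproducible list was the one past the irreproducible discovery rate (IDR) threshold and held 2141 peaks, of which 2121 were nuclear. It consisted of the 2141 pooled peaks of highest signal value, the authors' own value per peak, whose scaling is not stated. A list with only the upper 50% of those peaks reached none of the 9 genes (9.11% of all genes), and one with 200% as many pooled peaks reached syp-4 alone (26.2% of all genes). Relaxed lists of 30000 peaks each, for either replicate and for both pooled, include background by design. Read depth is unknown because the files hold no counts.

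Sequence between neighbouring genes is shown for some of the genes on chromosomes IV and V, since 8 of the 9 genes stand head-to-head with another gene. In the 2 sequences below, each read in the direction of the meiotic gene and ending at its annotated 5' end, capitals mark matches to the searched motifs TTTGAA and TTCGAA on either strand. The first is the space between him-3 and pgl-1, which holds no summit of any list (chrIV:6977319-6977507, plus strand, WBcel235). The second is the space between syp-2 and cox-16, shown because syp-2 was the only one of these genes on chromosomes IV and V with a pooled summit within 500 bp of its 5' end (chrV:5536244-5536486, plus strand, WBcel235). The pooled summits at that distance lay 111 bp inside syp-2 and 457 bp upstream in cox-16. The space between syp-2 and cox-16 thus holds no pooled summit, and it holds no summit of either replicate.
him-3 and pgl-1: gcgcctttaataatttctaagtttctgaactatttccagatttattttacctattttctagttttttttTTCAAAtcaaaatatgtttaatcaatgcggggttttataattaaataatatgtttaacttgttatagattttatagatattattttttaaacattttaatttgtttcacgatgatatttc
syp-2 and cox-16: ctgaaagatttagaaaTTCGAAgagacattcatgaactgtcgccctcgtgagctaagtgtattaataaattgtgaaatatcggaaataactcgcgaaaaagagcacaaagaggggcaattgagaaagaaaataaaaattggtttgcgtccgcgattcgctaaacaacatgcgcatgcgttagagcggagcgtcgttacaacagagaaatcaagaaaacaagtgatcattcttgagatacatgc
The space upstream of him-3 is 189 bp long with a GC content of 20.6%. The space upstream of syp-2 is 243 bp long with a GC content of 39.5%.

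In the pooled list, the summits within 500 bp of a 5' end of the 9 genes were at 3 central region genes, syp-2, syp-3 and syp-4. The syp-4 peak lay on chromosome I from 6847197 to 6847532 with its summit at 6847365, intergenic and 146 bp upstream of the 5' end of syp-4, which encodes a central region protein. Its pooled signal value was 47.5 and its rank 1569, above the lowest signal value of the IDR list, 40.1. In replicate 1 the overlapping peak had a signal value of 25.4 and rank 1954, with a summit 151 bp upstream. In replicate 2 the overlapping peak had a signal value of 25.6 and rank 1185, with a summit 281 bp upstream. Both replicates thus placed a peak upstream of syp-4 among their 2141 highest, with summits 130 bp apart.

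Other annotated genes lie under the syp-4 peak. The snRNA gene H27M09.6 (chromosome I, 6847137 to 6847303) and the non-coding RNA gene H27M09.7 on the opposite strand lie between syp-4 and the divergent gene H27M09.5. The peak covered 107 bp of H27M09.6, and the replicate 2 summit fell inside it, while the pooled summit lay 62 bp beyond its end on the side of syp-4. From the 5' end of H27M09.5, the pooled summit lay 406 bp away and the replicate 2 summit 271 bp. The replicate 2 summit was thus slightly nearer to H27M09.5 than to syp-4, at 281 bp. Of 129 annotated nuclear snRNA genes, 26 (20.2%) had an IDR summit inside or within 200 bp. Which of these genes the peak belongs to was not tested.

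syp-3, another central region gene, had 2 pooled peaks. One lay 12 bp before its 5' end, with a signal value of 16.7 and rank 10154. It was found in both replicates, with a signal value of 13.5 and rank 6973 in replicate 1 and a signal value of 6.70 and rank 14716 in replicate 2. Of the 31-base windows in this peak, 32.4% occur elsewhere in the genome, and how reads from repeated sequence were placed is not stated. The other, with a signal value of 25.2 and rank 4981, lay 515 bp upstream of syp-3 and 16 bp upstream of the divergent gene F39H2.3. It ranked 5218 in replicate 1 and 5324 in replicate 2, similar ranks, although the summits of the replicates lay on either side of the pooled one.

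syp-2 had 5 pooled peaks, more than any other of the 9 genes. The highest had its summit 111 bp inside the gene in the annotated 5' UTR, with a signal value of 19.3 and rank 7962. Its rank was 23492 in replicate 1 and 4529 in replicate 2, so the replicates differed widely on it. The pooled peak 457 bp upstream lay in an intron of cox-16, a gene named for assembly of cytochrome c oxidase, with a signal value of 9.23. The peaks 658 and 1770 bp upstream had signal values of 15.4 and 15.3 and lay within cox-16 and C24G6.8. The last, 606 bp inside the gene, had a signal value of 10.7 and no overlapping peak in either replicate.

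syp-1, a central region gene of 3428 bp, had no pooled peak within 2 kb. Each replicate listed 1 peak there, at different places. That of replicate 1 lay 1314 bp inside the gene, in the annotated 5' UTR, with a signal value of 12.7 and rank 7821. That of replicate 2 lay 506 bp upstream with a signal value of 4.08 and rank 29326. The replicates thus shared no peak at syp-1. Only 0.324% of the 31-base windows in reach of syp-1 occur elsewhere in the genome. The nearest reproducible summit was 2550 bp upstream (signal value 49.2, rank 1463), 167 bp before the 5' end of F13A7.14, a gene that overlaps the 5' end of syp-1.

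**Figure D1:**
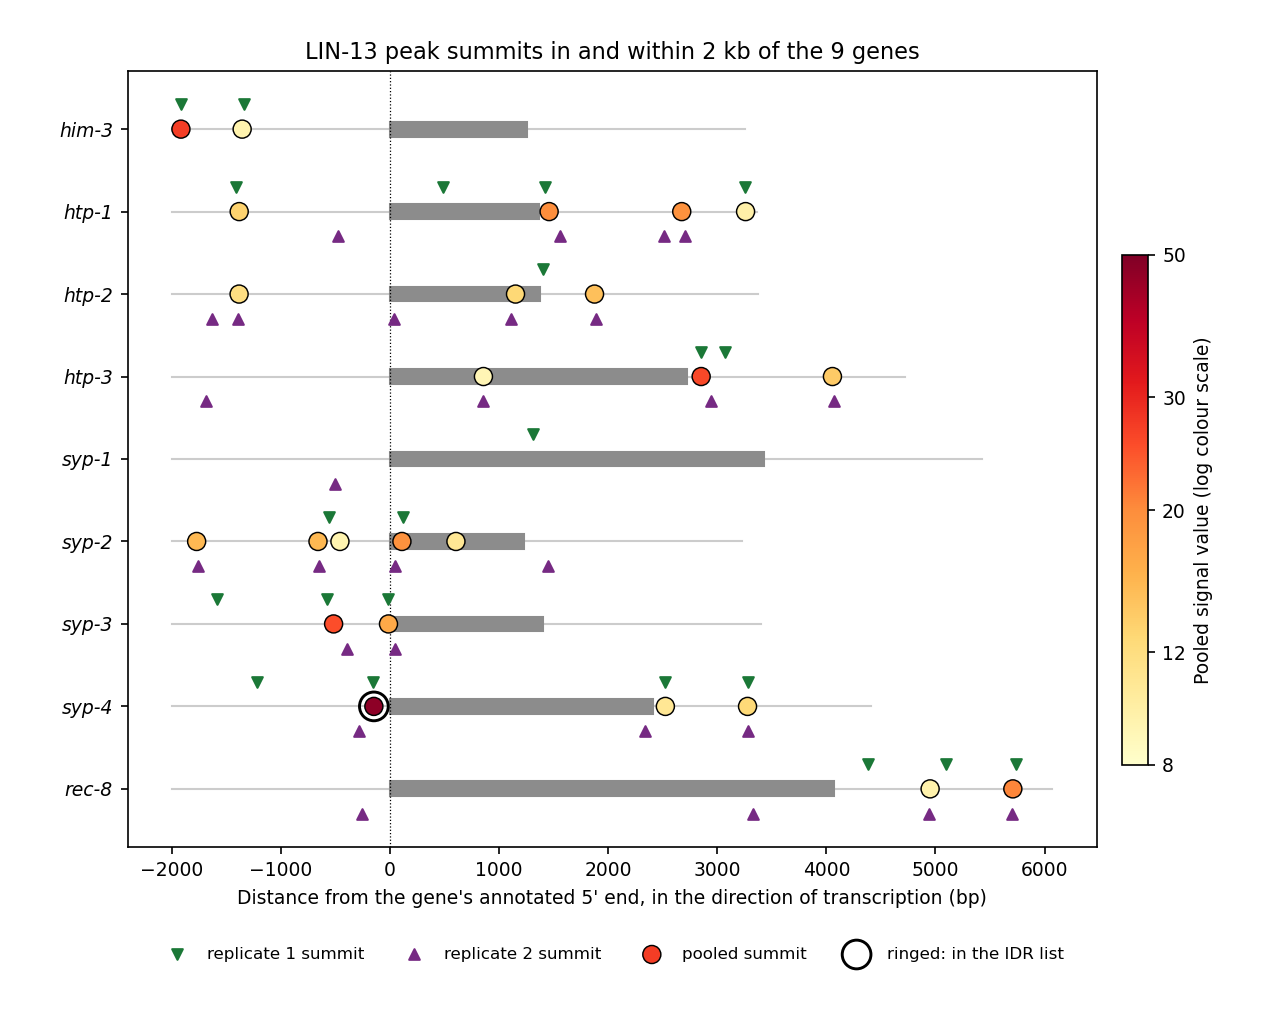
Peak summits inside and within 2 kb of the 9 genes, by distance in bp from each gene's annotated 5' end in the direction of transcription. Grey bars are genes, circles pooled summits coloured by signal value on a log scale, downward triangles summits of replicate 1 and upward triangles those of replicate 2; the single ringed circle is the syp-4 peak, 146 bp upstream, and syp-1 has no circle.

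None of the 4 HORMA-domain axis genes had a pooled summit within 500 bp of its 5' end. For all protein-coding genes that share was 39%, and among the 9 genes it was 3: syp-2, syp-3 and syp-4. With 4 genes, nothing is read from this. In the replicates' own lists, htp-1 had a summit at that distance in both and htp-2 in replicate 2. Each of the 4 axis genes had pooled peaks elsewhere in reach, mostly at neighbours. him-3, an axis gene needed for assembly of the synaptonemal complex, had 2 pooled peaks, both upstream and both inside pgl-1, which encodes a P granule protein. The higher had a signal value of 27.1 and rank 4403, lay 1914 bp upstream in an intron of pgl-1, and was just inside the 2 kb limit. It ranked 4916 in replicate 1 and 6305 in replicate 2, although the replicate 2 summit lay beyond the 2 kb limit.

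htp-3, the axis gene on which the other HORMA proteins depend for loading, had its highest peak just beyond its 3' end. This peak had a signal value of 25.8 and rank 4790 and lay 2853 bp from the 5' end of htp-3, which is 210 bp before the 5' end of F57C9.4. It ranked 5567 in replicate 1 and 9633 in replicate 2. A weak pooled peak inside a coding exon of htp-3, with a signal value of 9.05 and rank 26336, was found in replicate 2 and not in replicate 1.

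htp-1 and htp-2 are close paralogues on chromosome IV whose products act on the release of sister chromatid cohesion. Their coding sequences, both 1056 bp long, were 90.3% identical by global alignment. The longest run without a difference in the coding sequences was 62 bases, shown because reads inside it cannot be placed on one gene by sequence.
htp-1 and htp-2: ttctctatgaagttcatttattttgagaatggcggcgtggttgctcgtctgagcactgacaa
It lies at chrIV:5391032-5391093 on the minus strand in htp-1 and at chrIV:6419992-6420053 on the plus strand in htp-2 (WBcel235). In reach of htp-1 4.79% of 31-base windows occur elsewhere in the genome, and in reach of htp-2 6.27%, the highest shares of the 9 genes. A weak peak of replicate 1 alone, with a signal value of 6.08 and rank 26649, had its summit inside the run in htp-1, 488 bp from the 5' end.

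The likeness extends upstream of both genes. A local alignment of the spaces before their 5' ends found 127 bases with 116 identical positions (91.3%) and 11 different ones, with no gap. The block ends 245 bases before the 5' end of htp-1 (chrIV:5391802-5391928, minus strand) and 72 bases before that of htp-2 (chrIV:6419324-6419450, plus strand). Both are printed in the direction of the gene, with the shared TTTGAA in capitals.
htp-1 upstream: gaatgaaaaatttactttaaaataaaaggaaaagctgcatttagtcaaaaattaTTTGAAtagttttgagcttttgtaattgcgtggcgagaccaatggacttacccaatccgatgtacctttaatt
htp-2 upstream: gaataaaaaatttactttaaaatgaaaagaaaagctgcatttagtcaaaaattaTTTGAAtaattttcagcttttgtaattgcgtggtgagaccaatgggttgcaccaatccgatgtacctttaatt
No pooled, replicate 1 or replicate 2 summit fell within either block, although a weak peak of replicate 2 alone overlapped each. Their summits lay 479 bp upstream of htp-1 (signal value 5.26, rank 21359) and 42 bp inside htp-2 (signal value 6.93, rank 13963). How the authors treated reads that fit several places is not given in the sources used here, and the part of such reads in these values was not tested.

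At htp-1 several peaks differed between the replicates. Its second highest pooled peak had a signal value of 19.4 and rank 7919 and lay 2675 bp from the 5' end, beyond the gene, in the non-coding RNA gene F41H10.36 and 323 bp upstream of elo-6, a fatty acid elongase gene. In replicate 2 the overlapping peak had a signal value of 22.2 and rank 1585, among the 2141 highest. In replicate 1 no relaxed peak overlapped it. The highest pooled peak, just beyond the 3' end of htp-1, had a signal value of 19.97 and rank 7525, with rank 11029 in replicate 1 and rank 3237 in replicate 2. The lowest of its 4 pooled peaks, with a signal value of 9.66 in an intron of elo-6, was found in replicate 1 and not in replicate 2.

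htp-2 had 3 pooled peaks with signal values from 11.9 to 14.6, the lowest maximum of the 8 genes with a pooled peak. The one of 14.6 lay beyond the gene, 187 bp upstream of puf-11, a gene of the Pumilio family of RNA-binding proteins. It was found in replicate 2, at rank 5632, and not in replicate 1. The peak of 12.7 had its summit in a coding exon of htp-2, as did the overlapping peak of replicate 2, which ranked 16793. The replicate 1 peak that overlapped its edge ranked 5466, but its summit lay 251 bp away, 27 bp beyond the gene in intergenic sequence.

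rec-8, the only cohesin gene of the 9, had 2 pooled peaks, both beyond its 3' end near W02A2.9. Their signal values were 20.5 and 9.46, with ranks 7212 and 24783, and both had an overlapping peak in each replicate. The higher ranked 6936 in replicate 1 and 15444 in replicate 2. At the 5' end, replicate 2 alone listed a peak, 255 bp upstream in the space shared with mex-5, a gene of early embryonic polarity, with a signal value of 7.56 and rank 12037. It also listed one in an intron of rec-8, with a signal value of 7.09 and rank 13445. The 200 bases around this summit are shown because it is the only summit of any list between these genes (chrIV:13353348-13353547, minus strand, WBcel235, in the direction of rec-8, TTTGAA in capitals).
rec-8 and mex-5: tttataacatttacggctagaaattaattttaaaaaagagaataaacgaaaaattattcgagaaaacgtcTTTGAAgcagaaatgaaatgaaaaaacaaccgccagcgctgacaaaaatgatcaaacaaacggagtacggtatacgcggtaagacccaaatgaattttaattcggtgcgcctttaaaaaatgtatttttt

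Taken over the 9 genes, 8 had a pooled relaxed peak in reach, against 67.2% of all protein-coding genes and 88% of 50 other meiosis genes. In replicate 1 all 9 had a relaxed peak in reach, against 70.3% of all genes and 90% of the other meiosis genes. In replicate 2 all but him-3 had one, which is 8, against 72.2% of all genes and 94% of the other meiosis genes. Within 500 bp of a 5' end, replicate 1 listed peaks at 4 genes (htp-1, syp-2, syp-3 and syp-4) against 38.8% of all genes. Replicate 2 listed peaks there at 6 genes (htp-1, htp-2, syp-2, syp-3, syp-4 and rec-8) against 39.6% of all genes. Among the other meiosis genes these shares were 54% in replicate 1 and 68% in replicate 2. In the pooled list 3 of the 9 genes had a peak there, against 39% of all genes and 62% of the other meiosis genes. With 9 genes, nothing is read from these counts. Most protein-coding genes thus had a peak of the relaxed lists inside them or within 2 kb, and a minority had one within 500 bp of a 5' end.

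The highest pooled signal value in reach had a median of 20.5 over the 9 genes, with syp-1 placed lowest. The median was 24.3 over 50 other meiosis genes and 13.9 over all protein-coding genes, where a gene with no peak was again placed lowest. Among genes that have a pooled peak the medians were closer, at 22.8 for 8 of the 9 genes, 27.04 for 44 other meiosis genes and 21.9 for 13418 protein-coding genes. No pooled peak was in reach of 1 of the 9 genes, against 32.8% of all protein-coding genes. By the highest pooled signal value syp-4 stood at or above 87.6% of all genes. him-3 followed at 73.4%, htp-3 at 71.8% and syp-3 at 71.0%. rec-8, htp-1 and syp-2 lay between 62.1% and 64.0%, and htp-2 at 52.0%. The highest peaks of syp-4, htp-1 and syp-2 were nearest to the gene's own 5' end. Those of him-3, htp-3, syp-3, rec-8 and htp-2 were nearest to pgl-1, F57C9.4, F39H2.3, W02A2.9 and puf-11, so these values may belong to neighbours. Among the genes with a pooled peak, syp-4 was above 81.6%, him-3 above 60.3%, htp-3 above 58.0% and syp-3 above 56.8%. On that base the other 4 lay below the middle, with rec-8 above 46.4%, htp-1 above 45.3%, syp-2 above 43.6% and htp-2 above 28.5%. Only the value of syp-4 was above the lowest value of the IDR list, and those of him-3, htp-3 and syp-3 lay close together.

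**Figure D2:**
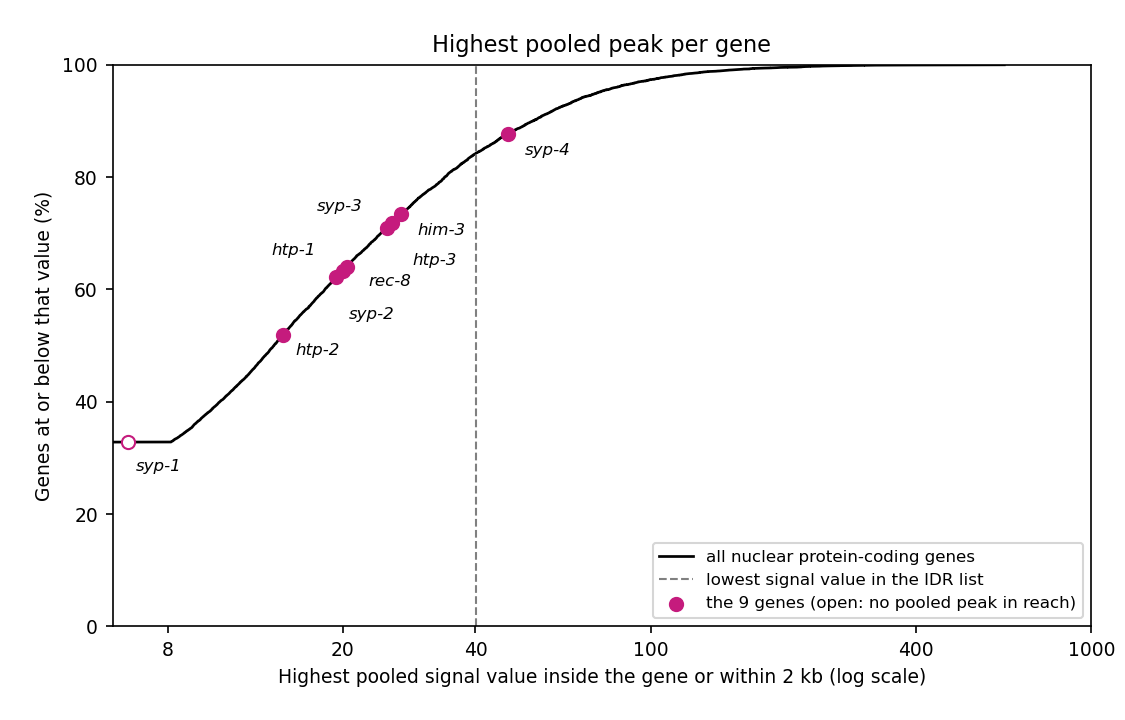
Highest pooled signal value inside each gene or within 2 kb (horizontal, log scale) against the percent of all 19973 nuclear protein-coding genes at or below that value (vertical). Filled points are 8 of the 9 genes, the open point is syp-1 with no pooled peak, and the dashed line is the lowest value of the IDR list, which only syp-4 exceeds.

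The nearest reproducible summit lay 31253 bp or more from 6 of the 9 genes. The median distance from a gene to the nearest IDR summit was 31952 bp for the 9 genes, 8762 bp for the other meiosis genes and 18099 bp for all protein-coding genes. Within 5 kb, 3 of the 9 genes had an IDR summit, against 4842 of 19973 protein-coding genes. With 9 genes, nothing is read from the medians. Just outside the limit of 2 kb were syp-1, at 2550 bp, and htp-1, whose nearest summit was 3328 bp upstream and 81 bp before the 5' end of perm-3 (signal value 64.3, rank 804). The other 6 genes without one lay between 31253 and 57989 bp from the nearest summit. Those summits were upstream of ruvb-2 for him-3, hrpf-2 for htp-2, rpl-41.2 for htp-3, nhr-47 for syp-2, pbs-7 for syp-3 and Y62E10A.23 for rec-8.

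The pooled summits near these genes seldom lay in the genes themselves. Of 24 pooled summits, 4 were inside a gene of the 9, 10 upstream and 10 downstream. Over all protein-coding genes, 38.5% of the summits in reach were inside, 33.1% upstream and 28.5% downstream. The 9 genes were shorter, with a median length of 1401 bp against 2027 bp, and the part of length in this difference was not tested. The nearest 5' end of a protein-coding gene belonged to another gene for 18 of the 24 summits (75%). Over all protein-coding genes this held for 44.4% of the 46460 pairs of a gene and a pooled summit in its reach. A head-to-head arrangement, defined below, was found for 8 of the 9 genes, against 17.2% of all protein-coding genes. It put another 5' end 189 to 551 bp from that of the gene. The part of this arrangement in the 75% was not tested.

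Agreement between the replicates was counted by overlap. Of the 24 pooled peaks, 14 (58.3%) overlapped a relaxed peak in both replicates, against 50.3% of all nuclear pooled peaks. Another 3 had one in replicate 1 only, 6 in replicate 2 only and 1 in neither. Of all 29976 nuclear pooled peaks, 7531 had one in replicate 1 only, 5278 in replicate 2 only and 2093 in neither. A pair of syp-2 peaks overlapped the same peaks of the replicates, so the 14 are not independent. Among the 2141 highest peaks of each replicate, syp-4 was the only gene of the 9 with a peak shared by both, against 10.6% of all genes. On replicate 1 alone 1 gene was reached by the 2141 highest peaks (15.8% of all genes), and on replicate 2 alone 2 were, syp-4 and htp-1 (15.5% of all genes).

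**Figure D3:**
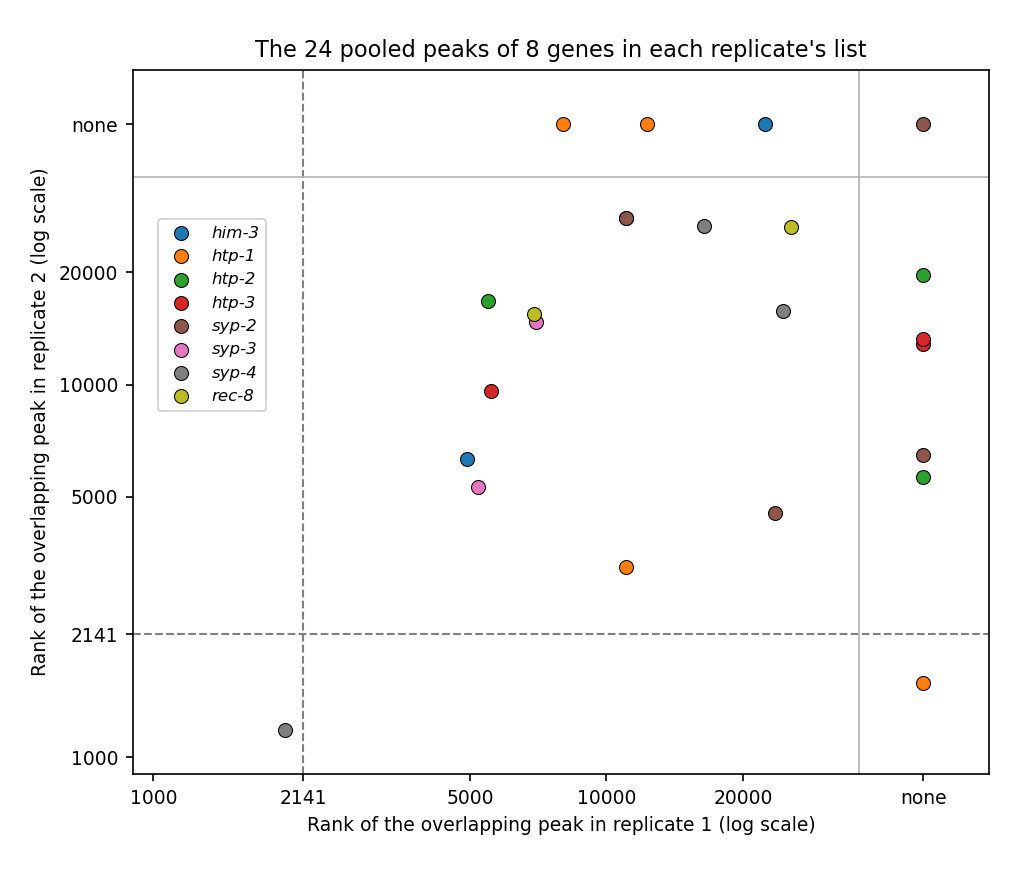
The 24 pooled peaks in reach of 8 of the 9 genes, by the rank of the overlapping peak in replicate 1 (horizontal) and replicate 2 (vertical), both on log scales, with peaks that had no overlapping peak at "none". Dashed lines mark rank 2141; only the syp-4 peak, at ranks 1954 and 1185, is past both, an htp-1 peak at rank 1585 in replicate 2 has none in replicate 1, and a pair of syp-2 peaks share 1 point.

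A feature that the choice of genes did not use was their arrangement. Of the 9 genes, 8 were head-to-head with the nearest upstream protein-coding gene, with at most 1000 bp between the 5' ends, against 17.2% of all protein-coding genes and 19 of the 50 other meiosis genes (38%). The gaps ran from 189 bp at him-3 and pgl-1 to 551 bp at syp-4 and H27M09.5, with a median of 436 bp, against 474 bp for all head-to-head genes. The partner of htp-3 was tofu-4, a gene of piRNA biogenesis. syp-1 was the exception, since its 5' end lies inside F13A7.14. With gaps of up to 500 bp, 5 of the 9 genes remained, against 9.09% of all genes. Head-to-head genes as a whole had an IDR summit in reach in 26.03% of cases, and of the 8 here 1 had one. The pattern was seen in these data before it was counted, so no test was made.

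The annotated 5' end of a worm gene can be the site where a leader RNA is spliced on, not the start of transcription. The letters TTNCAG, the form of a splice acceptor, stood directly before the annotated 5' end of htp-1 and rec-8, and before 19.0% of all protein-coding genes. For these genes distances to the 5' end may not be distances to the start of transcription.

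Motif letters were searched within 150 bp of each 5' end on both strands. GAGAGAG was at none of the 9 genes, against 5.63% of all protein-coding genes. It was at 1 of the 24 pooled summits of the 9 genes, against 23.1% of IDR summits and 9.52% of all pooled summits. GCGGGA, an E2F-like motif, was at none of the 9 genes, against 5.86% of all genes. The longer GCGGGAA, which contains it, was at none, against 2.67%. GCGGGA was at 1 of the 24 pooled summits, against 7.71% of all pooled summits, and GCGGGAA at 1, against 4.08%. TTTGAA, a form of the cell cycle homology region, was at 5 (him-3, htp-2, syp-1, syp-3 and syp-4), against 59.0% of all genes. TTCGAA, another form of it, was at 3 (htp-1, syp-1 and rec-8), against 17.5%. GGGCGG was at syp-3 (7.07% of all genes) and CACGTG at rec-8 (6.19%). The median GC content of these windows was 34.9% for the 9 genes and 35.5% for all genes. A match is only a description of the letters, and a motif that is absent says nothing about a factor.

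Among 50 other meiosis genes, 11 (22%) had an IDR summit in reach, against 15.8% of all protein-coding genes, and 4 (8%) had one within 500 bp of a 5' end, against 6.99%. The lists by role hold 4 to 11 genes each, and nothing is read from their counts against these shares. Those 4 were scc-2, wapl-1, scc-1 and brc-1. Cohesin and axis regulators had 4 of 10 in reach. The peak at scc-2, the cohesin loader, had a signal value of 167.01 and rank 82, and lay 163 bp upstream of an annotated 5' end in an intron of the gene. The peak at wapl-1, a cohesin release factor, had a signal value of 150.1 and rank 102, 162 bp upstream. At scc-1, the mitotic kleisin and counterpart of rec-8, a peak with a signal value of 54.4 lay 260 bp upstream and only 34 bp upstream of rpn-5. A second lay 2832 bp downstream of the 5' end of scc-1 and 516 bp upstream of unc-85, with a signal value of 46.2. him-1, the SMC1 subunit shared by mitotic and meiotic cohesin, had a peak 1151 bp upstream with a signal value of 42.8. The nearest 5' end to that peak was that of enu-3.3, 399 bp away.

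Of the other central region genes, syp-6 alone of 4 had reproducible peaks in reach, and their nearest 5' ends were those of neighbours. The higher, with a signal value of 193.9 and rank 59, lay 179 bp upstream of bag-1, a co-chaperone gene, and 1495 bp upstream of syp-6. The other, with a signal value of 51.1, lay 157 bp upstream of ipgm-1. In double-strand break formation 3 of 11 genes were reached: him-5 (signal value 46.1), xnd-1 (56.9) and rec-1 (58.5), each with a nearest 5' end of another gene. The him-5 summit fell in the snoRNA gene smy-3, and the peak ranked 1270 in replicate 1 and 5481 in replicate 2. In strand exchange and repair 3 of 10 were reached. brc-1, the worm BRCA1 gene, had a peak 145 bp upstream with a signal value of 79.6 and ranks 577 and 430 in replicates 1 and 2. brd-1, its partner, had 2 intronic peaks (signal values 74.7 and 54.4), the higher over an annotated tRNA gene. xpf-1, a nuclease gene, had one 1520 bp upstream with a signal value of 47.9, nearest to kel-1. None of the 8 genes of homologue pairing and chromosome movement and none of the 7 of crossover designation had a reproducible summit in reach.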

How the data were processed

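The authors deposited peak lists in narrowPeak layout for replicate 1, replicate 2 and the pooled replicates, and an IDR list; the ce11 files were used. Per the deposited listings, the relaxed lists were derived from the replicates' alignments and 1 further file that is not described there. The sources used here do not name aligner, peak caller, thresholds or versions. The signal value per peak is the authors' own, without a stated scaling, and served only to describe and rank peaks within a list. The deposited −log10 q-value column was not used to rank, since all 2141 IDR peaks share its highest value, and the deposited p-value column holds -1 throughout.

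Summits were placed on Ensembl release 115 (WBcel235) and sequence was read from the RefSeq genome of the same build. Coordinates count from 1. Replicate peaks overlapped when they shared 1 bp or more. The counting was tested on simulated summits. The members, gene lists, motifs and rules were chosen with earlier results of these data known. All 9 members were named, other meiosis genes were named when they had an IDR summit in reach, and neighbours when near a member's peak. Neighbours of weaker peaks were named after their values were seen. With 2 replicates of 1 group and chosen genes, no test was made. The alternatives were other reaches, distances, list lengths and overlaps, and each replicate alone. Python 3.11.15, NumPy 2.4.6, pandas 2.3.3, Biopython 1.88 and matplotlib 3.10.9 were used.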

Additional observations from a re-analysis of the deposited data

How the results depend on the processing

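Of the 9 genes, the number with a peak in reach was 0 for summits inside the gene, 3 within 5 kb (adding syp-1 and htp-1) and 0 in the upper 50% of the list. Leaving out either replicate gave 1 to 2, the second being htp-1 in replicate 2 alone. The number with a summit at a 5' end was 0 in the upper 50% and 1 without either replicate. With summits within 100 bp of each other, or with 50% as many peaks per replicate, the number with a shared peak was 0. A pooled relaxed peak lay inside 3 genes. For these counts at a 5' end, of shared peaks and of pooled relaxed peaks, no share over all genes is given. Nothing is read from them. Of the 50 other meiosis genes, 2 had a peak inside, 20 within 5 kb, 7 in the upper 50% and 21 with 200% as many peaks, and 12 to 13 without either replicate. For all protein-coding genes these numbers were 565, 4842, 1819 and 5239, and 3096 to 3160. Among the motifs, TTCGAA was at 1 of the 9 genes with a window of 200 bp (12.1% of all genes). With 500 bp it was at 5 (28.0% of all genes). GGGCGG was at 0 with 200 bp (5.16% of all genes). Ranking by p-value was not run, since that column is constant. No paired analysis was possible because the samples form a single group. Depth is unknown and limits every count here.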
